A study of Mus musculus with 70 samples.

Results

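The response of the wild-type mouse pituitary gland to thyroid hormone was read from RNA-seq of 4 hypothyroid and 4 hyperthyroid libraries, out of 18 RNA-seq libraries and 70 samples in the series. The members are all genes of the deposited table, 1 entry for each of 22835 gene symbols, for which the transcript with the highest mean level over the 18 libraries was kept. Of these, 13145 genes lay above 1 CPM (reads scaled to a common library total, not divided by transcript length) in all 18 libraries and were tested. Both groups were C57BL/6J adult male mice, and each library was made from a pool of 3 pituitaries. Hypothyroid (MMI) mice drank methimazole (0.05%), a blocker of thyroid hormone synthesis, with potassium perchlorate (1%), a blocker of iodide uptake. Hyperthyroid (+T3) mice drank the same agents and, in the final week, also T3 (0.5 µg/ml), so that the groups differed in the T3 supplied. No untreated RNA-seq library was compared, and a gene described as higher after T3 can equally be described as lower in hypothyroidism. The 10 *Thrb*-KO libraries entered the model only to estimate the spread, but they also counted in the 1 CPM limit and the choice of transcript. Their *Thrb* RNA was 239 to 295 CPM in hypothyroid mice, against 239 to 297 CPM in wild type. In hyperthyroid mice their *Thrb* RNA was 228 to 300.5 CPM, against 72.4 to 123.5 CPM in wild type. The paper describes these mice as TRβ-deficient.

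T3 acts through nuclear receptors, TRα and TRβ, which sit on DNA with a retinoid X receptor and change the transcription of nearby genes when the hormone binds. In the pituitary, thyrotrophs make thyrotropin (TSH) from the *Tshb* and *Cga* subunits under the drive of hypothalamic TRH, and T3 suppresses this axis by negative feedback. Somatotrophs, which make growth hormone, depend on T3 for *Gh* transcription in rodents. Hypothyroidism is also known to change the numbers and size of pituitary cells, and in RNA from whole glands fewer cells of a type cannot be told apart from less RNA per cell.

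The hormone genes checked the treatment. *Tshb* fell from 4565 ± 1772 to 203 ± 178 CPM (mean ± SD, n = 4 each) and *Cga* from 8118 ± 2373 to 1355 ± 213 CPM. *Gh* rose 2.07-fold and *Prl* 3.67-fold. *Thrb* fell 2.47-fold, whereas *Thra* changed by -0.44 on the log2 scale and was not called. Among genes of hormone entry and activation, the deiodinase *Dio2* (1069 ± 145 to 36.9 ± 2.80 CPM) and the transporter *Slc7a8* (239 ± 40.3 to 76.3 ± 8.31 CPM) fell. With *Thrb* they were the 3 called of 17 tested genes for deiodinases, transporters and receptors, of which a further 3 were higher without hyperthyroid replicate 3. The TRH receptor *Trhr* fell from 64.1 ± 0.997 to 2.88 ± 0.508 CPM.

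Library totals were 27583846 to 43561206 reads in hypothyroid and 24662318 to 44458073 in hyperthyroid mice, so that 1 read was worth 0.0225 to 0.0405 CPM. Hyperthyroid replicate 3 stood apart, with 34.7% of its CPM in its 10 most abundant genes against 14.4 to 24.003% in the other 7 libraries. It had the highest *Gh* (159094 CPM) and *Prl* (53184 CPM), and its TMM factor, edgeR's correction for such composition, was 0.832 against 0.967 to 1.04. Replicates 1 and 2 and replicates 3 and 4 formed separate library sets by their values, for which the labels give no reason, and changes were also taken within each set.

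At a Benjamini-Hochberg adjusted p under 0.05 in limma and a change of at least 1.5-fold, 509 genes were higher (3.87% of those tested) and 735 lower (5.59%) in hyperthyroid mice, either way 9.46%. When CPM were first scaled by TMM factors the split became 674 higher (5.13%) and 539 lower (4.10%), and the median log2 change of all genes went from -0.04 to 0.05. All 509 higher genes and 539 of the lower genes were called the same way on that scale. On whole reads recovered from the CPM, edgeR's quasi-likelihood test called 702 higher (5.34%) and 696 lower (5.29%). The 4 and 4 libraries did not overlap for 1077 of the 1244 called genes. Over all genes tested such separation occurred upward for 5.66% and downward for 11.7%. Every one of the 1244 called genes had the same sign in replicates 1 and 2 as in replicates 3 and 4, against 69.6% of all genes tested. Since the calls rest on the same libraries, this is a description. Each set alone called 1026 and 1118 of them in the same direction, and 906 were called in both. The size of the change differed between the sets at an adjusted p under 0.05 (limma interaction) for 1 gene, *Nrxn3*, chosen after its values were seen. At an unadjusted p under 0.05 in the same test it differed for 1037 genes, 7.89% of those tested. *Nrxn3*, a synaptic adhesion molecule, changed by -1.71 in replicates 1 and 2 and by -2.77 in replicates 3 and 4 on the log2 scale.

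**Figure D1:**
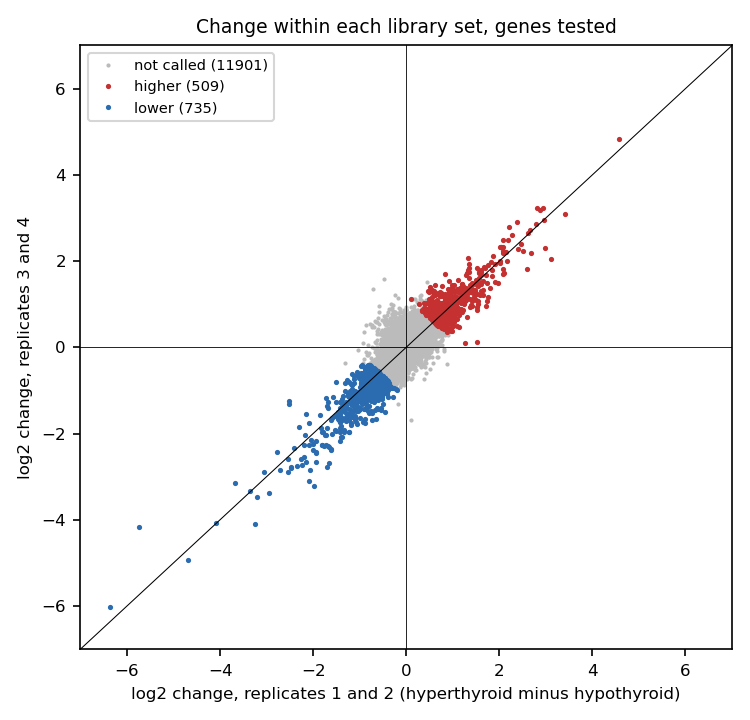
Log2 change (hyperthyroid minus hypothyroid, log2(CPM + 1)) of each tested gene in replicates 1 and 2 (x axis) and in replicates 3 and 4 (y axis), with called genes in colour. The 1244 called genes lie in the lower left and upper right of the plot, where both sets changed the same way.

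The 10 largest T3-induced changes were taken outside the hormone genes and the genes the study itself discusses. Only called genes whose 4 and 4 libraries did not overlap and whose sign agreed in both library sets could enter. That their groups do not overlap is therefore no result. *Sspo*, a giant secreted glycoprotein related to thrombospondins, stood at 3.62, 3.38, 2.73 and 2.14 CPM in the hypothyroid and at 105, 109, 72.6 and 129 CPM in the hyperthyroid libraries. *Bmp7*, a bone morphogenetic protein, stood at 4.51, 4.02, 3.33 and 2.76 CPM and then at 54.7, 55.8, 26.0 and 42.6 CPM. *Dock6*, an exchange factor for small GTPases, stood at 35.0, 35.6, 23.9 and 22.5 CPM and then at 252, 303, 153 and 336 CPM. The groups were far apart for all of these, and in each the lowest hyperthyroid value belonged to replicate 3. The uroplakin *Upk3a* rose 11.6-fold, from 2.13 ± 0.320 to 24.6 ± 3.05 CPM (limma adjusted p = 9.68e-12), with replicate 3 the highest.

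Further down the list, *Hunk*, a kinase related to SNF1, rose from 13.2 ± 2.73 to 91.1 ± 17.7 CPM (log2 change 2.70, standard error 0.15, limma adjusted p = 4.09e-10). *Slc6a11*, a transporter that takes up the inhibitory transmitter GABA, stood at 26.3, 29.1, 20.5 and 22.4 CPM in hypothyroid and at 197, 156, 136 and 143 CPM in hyperthyroid mice (log2 change 2.64, standard error 0.13, limma adjusted p = 5.45e-11). *Syt12*, a synaptotagmin, rose from 2.58 ± 0.597 to 19.01 ± 1.67 CPM. The change within the 2 sets was nearly equal for *Hunk* (2.67 and 2.72) and *Slc6a11* (2.62 and 2.65). *Gbp3*, *Col4a3* and *Col24a1*, which complete the 10 largest, are described with their families.

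**Figure D2:**
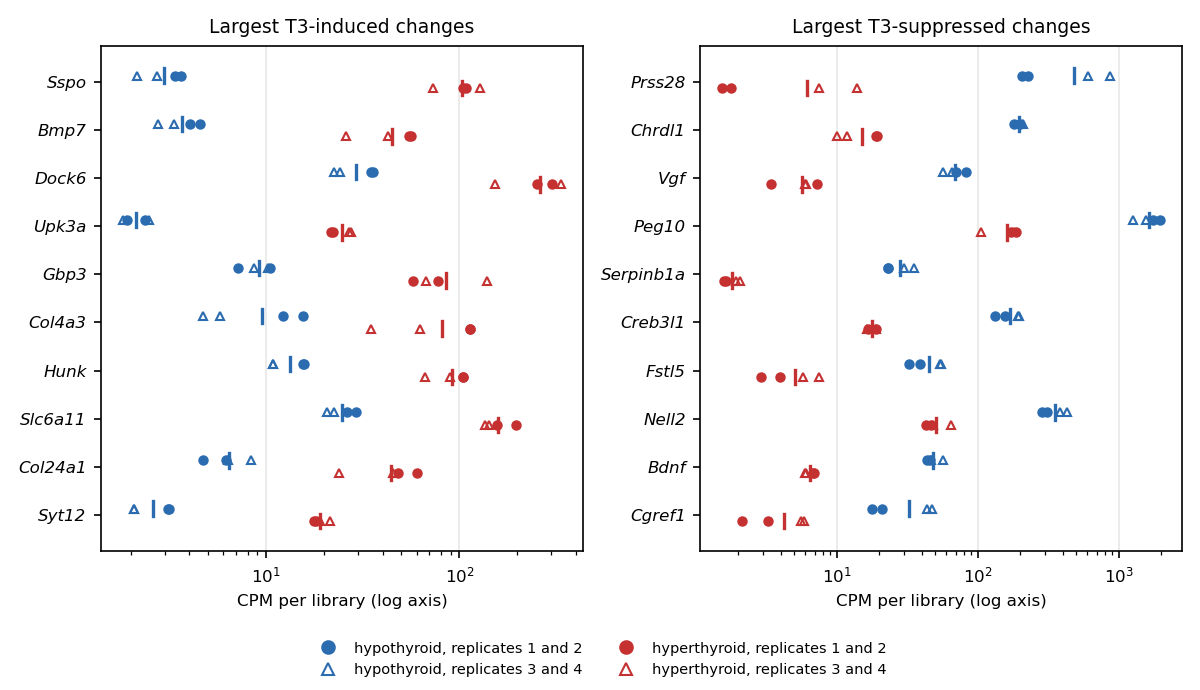
CPM per library (log axis) of the 10 largest T3-induced (left) and T3-suppressed (right) changes, with replicates 1 and 2 as circles, replicates 3 and 4 as triangles, and a bar at each group mean. By the rule of choice no gene shown has overlapping groups. *Prss28* shows the widest spread between library sets.

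Positions bound by TRβ were compared with these changes. The deposited list of 8051 sites was made in untreated pituitaries of mice whose receptor carries a tag (TRβ-HAB), and the list of 1776 T3-regulated ATAC sites, where chromatin opens or closes with T3, in nuclei marked through a *Thrb* driver. Of the T3-induced genes with a position on the build of the lists (mm9), 73.6% had a TRβ-HAB site within 20 kb of the gene (365 of 496, 95% Wilson confidence interval 69.5 to 77.3%). The share was 37.3% (interval 33.8 to 40.8%) for the T3-suppressed and 40.1% (interval 39.2 to 40.98%) for the genes not called. A T3-regulated ATAC site lay as near to 32.5% of T3-induced genes (interval 28.5 to 36.7%), to 10.1% of T3-suppressed genes (interval 8.12 to 12.5%) and to 6.50% of the others (interval 6.06 to 6.96%). The intervals, which cover counting error only, did not overlap between T3-induced genes and either other class. Median gene lengths were 31.8 kb for T3-induced, 32.9 kb for T3-suppressed and 24.4 kb for other genes.

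**Figure D3:**
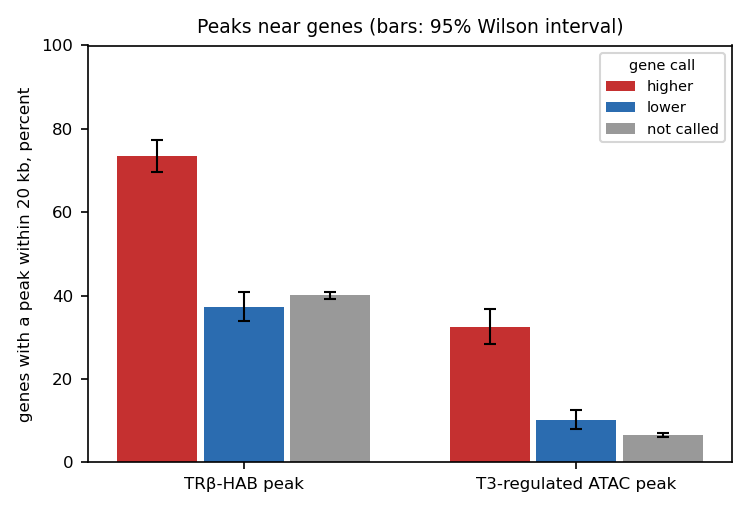
Percent of T3-induced (higher), T3-suppressed (lower) and other genes with a TRβ-HAB site or a T3-regulated ATAC site within 20 kb, with 95% Wilson intervals as error bars. The T3-induced genes stand above the other classes for both kinds of site.

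Of the 10 most T3-induced genes, 9 had a TRβ-HAB site within 20 kb, *Upk3a* being the exception, and 4 of the 10 most T3-suppressed genes had one (*Prss28*, *Creb3l1*, *Nell2* and *Cgref1*). The receptor pair is known to bind AGGTCA repeated after a 4 base spacer. With at most 2 mismatches in the 12 bases compared, on either strand, 20.9% of all 8051 sites held such a repeat, and their median length was 300 bases. For 6 of the 10 genes a TRβ-HAB site near the gene overlapped a T3-regulated ATAC site and held such a repeat. The share of all genes that meet this joint condition was not counted. The 20.9% is counted per site, not per gene, and cannot serve as its background. The repeats of these 6 genes are printed below. Whether a repeat itself lay inside the ATAC site was not checked, and the direction of the ATAC change was not used. Each line gives 30 bases, 5′ to 3′, on the strand of the repeat, with both AGGTCA-like hexamers in capitals.
*Sspo*: cagggacAGGTCTcctaAGGCCAggattac
*Bmp7*: tgtaacaTGGTCAccggAGGTCAtgtctcc
*Col4a3*: gccaaggAGGGCAtgcaGGGTCAgcactgc
*Hunk*: acagcaaAGATCAttcgAGGACAggggaga
*Slc6a11*: catgttcTGGACAaataAGGTCAgggagga
*Syt12*: aaggccaAGGTGAattgAGGACAtgccagg

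The *Bmp7* repeat (chr2:172767536-172767551, minus strand, mm9) had 1 mismatch and lay 1714 bp upstream of the gene, in a site with 16 receptor reads against 3 control reads. Those of *Sspo* (chr6:48442916-48442931, minus strand), *Col4a3* (chr1:82586967-82586982, minus strand) and *Slc6a11* (chr6:114153767-114153782, minus strand) lay in introns and had 2 mismatches each. The *Hunk* repeat (chr16:90503939-90503954, plus strand) lay 4141 bp beyond the end of the gene. The *Syt12* repeat (chr19:4493022-4493037, plus strand) lay 15575 bp upstream, in the site with the most receptor reads of the 6 (90 against 0 control reads). *Slc6a11* had 3 receptor sites within 20 kb, and 2 of them overlapped T3-regulated ATAC sites. At *Gbp3* a site with 34 reads against 4, which overlapped a T3-regulated ATAC site, covered the start of the gene. Its best match had 3 mismatches. A match describes the letters only.

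The 10 largest T3-suppressed changes were chosen in the same way. *Prss28*, a secreted serine protease with a close relative beside it in the genome, stood at 229, 207, 869 and 611 CPM in hypothyroid and at 1.78, 1.54, 13.8 and 7.54 CPM in hyperthyroid libraries. The library sets differed several fold in both groups, yet the log2 change was -6.36 and -6.02 within them. *Chrdl1*, an antagonist of bone morphogenetic proteins, stood at 180, 200, 195 and 210 CPM and then at 19.03, 19.2, 10.1 and 11.8 CPM. *Bdnf*, a neurotrophin, stood at 43.3, 45.8, 46.4 and 56.4 CPM and then at 6.86, 6.81, 5.96 and 6.02 CPM. The groups were wide apart for both genes, and the hyperthyroid *Chrdl1* levels were lower in replicates 3 and 4 (limma adjusted p = 3.05e-11 for *Chrdl1* and 1.79e-11 for *Bdnf*).

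*Nell2*, a secreted ligand with EGF-like repeats, fell 7.01-fold from 353 ± 67.1 to 50.4 ± 9.63 CPM. *Fstl5*, a secreted relative of follistatin, fell 9.02-fold from 45.3 ± 11.3 CPM. The calcium-binding secreted protein *Cgref1* fell 7.76-fold from 32.5 ± 15.3 CPM, with set levels that differed more than 2-fold in hypothyroid mice. The protease inhibitor *Serpinb1a* fell 15.4-fold, from 27.9 ± 5.92 to 1.81 ± 0.227 CPM. *Creb3l1*, a transcription factor held in the endoplasmic reticulum membrane that drives secretory cargo genes, stood at 156, 134, 195 and 193 CPM and then at 19.1, 16.6, 19.1 and 16.4 CPM. Its 4 hyperthyroid values lay close together and far below every hypothyroid value (log2 change -3.16, standard error 0.13, limma adjusted p = 8.82e-12). The remaining 2 of the 10, *Vgf* and *Peg10*, are described below.

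Genes were then grouped by function into 52 lists. The calls of all genes tested, 3.87% higher and 5.59% lower, and their median log2 change of -0.04 are the background for each list.

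**Figure D4:**
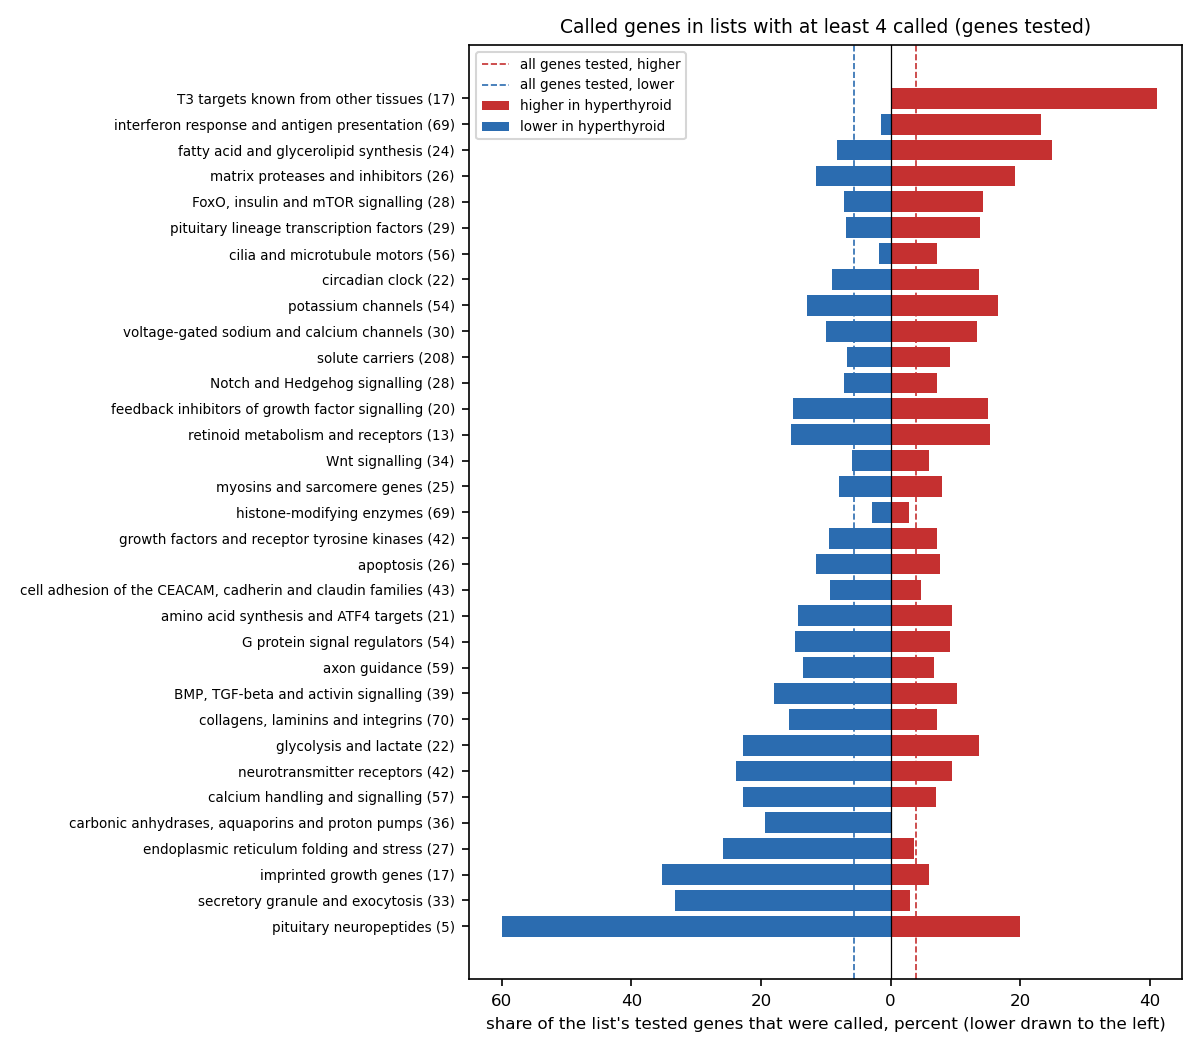
Percent of each list's tested genes called higher (right) or lower (left) after T3, for lists with at least 4 called genes, with the number of genes tested in parentheses and the shares over all genes as dashed lines. Neuropeptides, secretory granule and imprinted genes reach farthest to the left, and known T3 targets, lipid synthesis and interferon-response genes farthest to the right.

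Of 33 tested genes for secretory granules and exocytosis, 11 were lower, 1 was higher and 21 were not called, and the median log2 change was -0.31. Under TMM scaling 9 were lower and 2 higher, and without hyperthyroid replicate 3, 3 were higher. *Vgf*, a granin-like precursor of secreted peptides, stood at 83.1, 70.2, 56.7 and 65.2 CPM in hypothyroid and at 7.22, 3.43, 6.04 and 5.94 CPM in hyperthyroid mice. *Pcsk1*, the convertase that cleaves prohormones, stood at 598, 664, 784 and 744 CPM and then at 129, 132, 120 and 131 CPM. *Chgb*, a granin that packs the granule core, stood at 11823, 12048, 23334 and 21979 CPM and then at 3295, 3548, 4788 and 4677 CPM. For all 3, every hyperthyroid library was below every hypothyroid library. Secretogranin II (*Scg2*) stood at 2869 ± 456 and 2849 ± 406 CPM and chromogranin A (*Chga*) at 743 ± 126 and 713 ± 118 CPM, and neither was called. *Rab27b*, a GTPase of granule docking, rose from 25.4 ± 3.28 to 57.3 ± 10.1 CPM. Chosen after their values were seen, *Pam*, which amidates peptides, fell 2.83-fold and the granule membrane protein *Ptprn* 3.45-fold.

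Of 31 neuropeptide genes in the table only 5 were tested, of which 3 fell and 1 rose. The opioid precursor *Penk* stood at 28.2, 18.98, 11.5 and 16.7 CPM and then at 3.73, 4.12, 3.93 and 2.46 CPM. *Pdyn*, another opioid precursor, fell from 6.68 ± 0.723 to 2.04 ± 0.191 CPM and neuromedin B (*Nmb*) from 7.14 ± 3.31 to 2.61 ± 0.871 CPM. Apelin (*Apln*) rose from 17.4 ± 4.02 to 30.9 ± 3.95 CPM. All 4 were apart between groups.

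**Figure D5:**
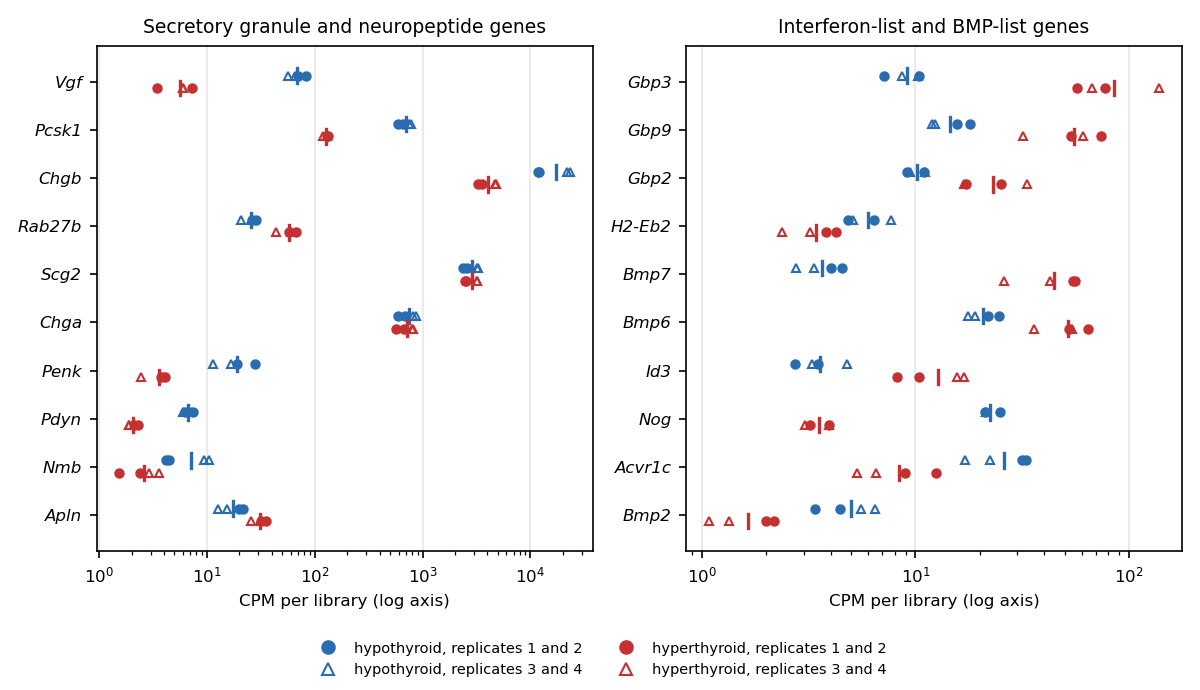
CPM per library (log axis) of secretory granule and neuropeptide genes (left) and of genes of the interferon and BMP lists (right), with replicates 1 and 2 as circles, replicates 3 and 4 as triangles, and a bar at each group mean. *Scg2* and *Chga* overlap between groups, and the other genes shown do not.

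Of 27 genes for folding and stress in the endoplasmic reticulum, 7 fell and 1 rose, with a median log2 change of -0.25. The lower count was 4 in edgeR, 5 in DESeq2 and 5 under TMM scaling. The Hsp70 partner *Sdf2l1* changed by -1.01, the lectin chaperone *Calr* by -0.79 and the stress-induced secreted factor *Manf* by -0.79 on the log2 scale, the last not called in edgeR (-0.66). For each of these the groups overlapped only because hyperthyroid replicate 3 exceeded a hypothyroid library of replicates 1 and 2. The Hsp70 chaperone *Hspa5* stood at 893 ± 223 and 653 ± 110 CPM and was not called. *Trib3*, a pseudokinase induced by amino acid stress, rose from 2.66 ± 0.759 to 5.18 ± 0.652 CPM. Of the translocon and signal peptidase list 2 of 27 fell, *Rpn2* (336 ± 80.8 to 192 ± 30.0 CPM) and *Dad1*, both subunits of the oligosaccharyltransferase. Without hyperthyroid replicate 3, 5 of the list fell. The *Dad1* call was lost under TMM scaling (log2 change -0.51), in edgeR (-0.44) and in replicates 3 to 5 alone (-0.46). It was also lost without hypothyroid replicate 1 or 4, or hyperthyroid replicate 1, 2 or 4 (-0.61 to -0.49). Of 31 genes listed for vesicle coats 2 fell, *Creb3l1* and the cargo receptor *Tmed3* (231 ± 64.4 to 101 ± 33.1 CPM). Neither encodes a coat subunit, and the other members were not called. Among 18 genes for hormone glycosylation the mannosidase *Man1a*, which trims N-linked glycans, fell 4.73-fold and was the only one called.

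Of 69 tested genes of the interferon response and antigen presentation, 16 were higher (23.2%) and 1 lower, and the median log2 change was 0.26. Without hyperthyroid replicate 4, in which several of these genes were highest, 9 were higher. The count was 24 under TMM scaling, 26 in edgeR and 29 in DESeq2. The 3 largest rises were in guanylate-binding proteins. *Gbp3* stood at 7.13, 10.4, 10.3 and 8.66 CPM and then at 57.3, 77.3, 67.0 and 139 CPM. *Gbp9* stood at 15.7, 18.0, 12.3 and 12.0 CPM and then at 53.6, 73.9, 32.0 and 61.2 CPM, and *Gbp2* at 9.10, 11.02, 11.1 and 9.43 CPM and then at 17.3, 25.2, 16.9 and 33.2 CPM. These GTPases of host defence lie in a cluster on chromosome 3 (*Gbp2*, *Gbp3*, *Gbp5* and *Gbp7*, 142159864 to 142300972) and another on chromosome 5 (*Gbp4*, *Gbp6*, *Gbp9* and *Gbp11*, 105507413 to 105772948). The other tested members of both clusters, chosen after their values were seen, rose by 0.64 to 0.92 on the log2 scale, with overlapping groups for *Gbp7*, *Gbp5* and *Gbp4*, while *Gbp11* was below 1 CPM in some libraries and went from 0.847 ± 0.195 to 3.36 ± 0.886 CPM. The *Gbp5* and *Gbp4* calls were lost without hyperthyroid replicate 4 (log2 change 0.55 and 0.52) or replicate 2 (0.55 and 0.54). Family members are alike in sequence, and how the authors assigned reads that match several of them is not given in the sources used here.

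Other induced members, also chosen after seeing values, were the transcription factor *Irf1* (18.1 ± 4.12 to 35.2 ± 9.92 CPM), *Ifit3* (3.66 ± 0.553 to 8.45 ± 3.81 CPM), *Isg15* (1.92 ± 0.261 to 4.19 ± 1.25 CPM) and *Rsad2*, whose groups overlapped, all classical interferon-induced genes. The class II gene *H2-Eb2* fell from 6.00 ± 1.33 to 3.41 ± 0.826 CPM. Neither the *Rsad2* nor the *H2-Eb2* call held without hyperthyroid replicate 4 (log2 change 0.75 and -0.54) or hypothyroid replicate 4 (0.78 and -0.56). The *Rsad2* call was also lost without hyperthyroid replicate 2 (0.91) and in replicates 3 to 5 alone (1.19). The *H2-Eb2* call was also lost in replicates 1 and 2 alone (-0.38). The abundant class I genes *B2m* (252 ± 15.4 and 224 ± 40.8 CPM) and *H2-K1* were not called. Macrophage and leukocyte markers had no called gene among 9 tested in limma, edgeR or DESeq2, 3 negative and 0 positive at an unadjusted p under 0.05, and a summed level of 138 to 171 CPM in hypothyroid and 103 to 189 CPM in hyperthyroid libraries. Without hyperthyroid replicate 4, 2 of these markers were called lower. Of 23 genes for NF-κB and cytokine signalling, the coactivator *Bcl3* rose and the receptor *Il1r1* fell, the latter not without hyperthyroid replicate 3 (log2 change -0.55).

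Genes for ligands, antagonists and receptors of the bone morphogenetic protein family were called in both directions. Of 39 tested genes of BMP, TGF-β and activin signalling 4 were higher and 7 lower, a split that became 5 and 4 under TMM scaling. Among ligands *Bmp7* rose 12.3-fold and *Bmp6* rose from 20.8 ± 3.07 to 51.8 ± 11.9 CPM, while *Bmp2* fell from 4.96 ± 1.35 to 1.65 ± 0.524 CPM. The secreted antagonist noggin (*Nog*) stood at 24.9, 21.3, 21.4 and 21.4 CPM and then at 3.91, 3.19, 3.93 and 3.04 CPM (limma adjusted p = 4.62e-10). *Chrdl1*, another antagonist, outside the list, fell as described. The activin-type receptor *Acvr1c* fell from 26.0 ± 7.58 to 8.33 ± 3.17 CPM. *Id3*, a target gene of this pathway in many cells, rose from 3.56 ± 0.879 to 12.8 ± 4.17 CPM.

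In the Wnt list 2 of 34 rose, *Wnt9a* (8.73 ± 0.531 to 19.1 ± 2.43 CPM) and *Wnt4*, and 2 fell, the secreted modulator *Dkk3* (75.6 ± 10.9 to 26.2 ± 4.87 CPM) and *Wnt10a*, the last not without hypothyroid replicate 1 (log2 change -0.58). Of 28 Notch and Hedgehog genes 2 rose, among them *Gli2*, and 2 fell, the Notch ligands *Dlk1* and *Dner*. The *Gli2* change was 1.26 in replicates 1 and 2 and 0.10 in replicates 3 and 4, with the call lost without any one of the 4 libraries of replicates 1 and 2 (0.53 to 0.60). The *Dner* call was lost under TMM scaling (log2 change -0.55), in edgeR (-0.57), in replicates 1 and 2 alone (-0.35) and without hyperthyroid replicate 3 (-0.46). Without that library 5 Wnt genes and 4 Notch and Hedgehog genes rose. Among 42 growth factors and receptor tyrosine kinases 3 rose and 4 fell. *Igf1*, a growth factor, went from 7.40 ± 2.37 to 18.97 ± 5.15 CPM and the receptor *Erbb3* from 13.2 ± 1.96 to 28.6 ± 9.16 CPM, while *Igfbp3*, which binds IGFs, went from 117 ± 12.3 to 59.6 ± 13.7 CPM. Of 20 feedback inhibitors of growth factor signalling 3 rose and 3 fell, but 1 rose without hyperthyroid replicate 4 and 1 fell without hyperthyroid replicate 3.

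In the matrix, 5 of 70 collagens, laminins and integrins rose and 11 fell, and under TMM scaling 5 rose and 6 fell. Without hyperthyroid replicate 3, 5 fell, and without hypothyroid replicate 1, 6 fell. *Col4a3*, a chain of basement membrane collagen IV, stood at 12.2, 15.5, 4.68 and 5.73 CPM and then at 114, 113, 35.0 and 62.3 CPM. *Col4a4*, which lies head to head with it on chromosome 1 (82447298 to 82583424 and 82583496 to 82718634), stood at 12.5, 16.2, 4.87 and 5.29 CPM and then at 64.0, 69.1, 22.3 and 33.3 CPM. Both genes had higher levels in replicates 1 and 2 of each group and nearly equal log2 changes within the sets (2.96 and 2.95 for *Col4a3*, 2.15 and 2.22 for *Col4a4*). The collagen *Col24a1* rose from 6.38 ± 1.49 to 44.5 ± 15.2 CPM. The laminin chain *Lama4* fell 4.76-fold, from 60.3 ± 3.68 to 12.7 ± 3.11 CPM, the integrin *Itgb8* 2.75-fold and *Col5a3* 3.16-fold. The fibroblast markers *Col1a1* (37.0 ± 7.80 to 22.2 ± 5.37 CPM) and *Col3a1* (33.3 ± 5.90 to 21.6 ± 5.12 CPM), both within the list, fell. Neither was called without hyperthyroid replicate 3 (log2 change -0.55 and -0.44) or without hypothyroid replicate 1. Of all 7 tested fibroblast markers 3 changed upward. The summed markers had a median of 371 CPM in hypothyroid and 370 CPM in hyperthyroid libraries. The part of fibroblasts in the other falls was not tested. Of 26 matrix proteases and inhibitors 5 rose, led by *Adamts17* (2.89-fold) and *Mmp15* (2.22-fold), and 3 fell, among them the protease inhibitor *Serpine2* (2.49-fold).

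Genes of electrical excitability and calcium moved in both directions, with genes for calcium leaning down. Of 57 tested genes for calcium handling 13 fell and 4 rose, and the median log2 change was -0.25. The calcium buffer *Calb1* stood at 100, 99.5, 140 and 179 CPM and then at 23.8, 24.7, 33.9 and 32.0 CPM. The pump *Atp2a3*, which refills the endoplasmic reticulum, stood at 56.5, 50.3, 68.0 and 73.4 CPM and then at 15.2, 14.5, 11.6 and 15.9 CPM. The exchanger *Slc8a1* fell 2.72-fold. *Camkk2*, a kinase upstream of AMPK, rose 3.75-fold and the release channel *Ryr2* 3.02-fold, with non-overlapping groups for all 5. The pore subunits of voltage-gated calcium channels *Cacna1a* (32.5 ± 4.90 to 65.7 ± 6.60 CPM) and *Cacna1d* rose, in a list of 30 sodium and calcium channel genes with 4 higher and 3 lower (7 higher without hyperthyroid replicate 3, 5 lower without hyperthyroid replicate 2).

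Potassium channels had 9 of 54 genes higher and 7 lower, both shares above those of all genes. The two-pore channel *Kcnk10* stood at 20.6, 25.0, 23.6 and 19.1 CPM and then at 2.54, 2.34, 2.92 and 3.38 CPM, while the related *Kcnk5* rose from 2.79 ± 0.707 to 10.7 ± 1.11 CPM. *Kcnmb4*, a subunit of calcium-activated channels, fell 3.96-fold and *Kcnt1*, a sodium-activated channel, rose 2.73-fold. Among 42 neurotransmitter receptors 10 fell and 4 rose (2 without hypothyroid replicate 3, hypothyroid replicate 4 or hyperthyroid replicate 2). The nicotinic subunit *Chrna6* stood at 68.0, 65.4, 126 and 126 CPM and then at 18.9, 13.9, 12.6 and 12.6 CPM, and the glutamate receptor *Grm2* fell 4.75-fold. The GABA receptor *Gabbr2* rose 2.44-fold. Of 54 regulators of G protein signals 8 fell, led by *Rgs4* (137 ± 32.5 to 33.0 ± 3.38 CPM), which shortens Gq and Gi signals, and 5 rose, led by the adenylyl cyclase *Adcy7* (3.96-fold) and the β subunit *Gnb3* (49.7 ± 9.71 to 134 ± 30.3 CPM).

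Ion and water transport genes of a further list, carbonic anhydrases, aquaporins and pumps, had 7 of 36 genes lower and none higher (limma, with 3 positive at an unadjusted p under 0.05, none higher in edgeR and 1 higher in DESeq2). They included the sodium pump subunit *Atp1b2* (2.48-fold lower) and *Car2* (2.77-fold lower). Axon guidance genes had 8 of 59 lower, led by *Sema5a* and the ephrin receptors *Epha5* and *Epha4*, and 4 higher, led by *Sema6c* (2 higher without hypothyroid replicate 3 or 4). Of 208 solute carriers 19 rose and 14 fell. The mitochondrial carrier of coenzyme A *Slc25a42* rose from 42.1 ± 1.83 to 134 ± 29.5 CPM, and the glutamine transporter *Slc38a1* fell from 340 ± 37.4 to 165 ± 38.6 CPM.

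Metabolic genes were called in both directions. Of 24 genes for fatty acid and glycerolipid synthesis 6 rose and 2 fell, also under TMM scaling. The desaturase *Scd1* stood at 37.0, 37.1, 24.04 and 24.3 CPM and then at 90.1, 77.2, 57.7 and 63.1 CPM, and the carbohydrate-responsive factor *Mlxipl* rose 2.36-fold. *Dgat2*, which makes triglyceride, fell from 33.4 ± 3.08 to 11.8 ± 1.41 CPM and the elongase *Elovl6* from 78.1 ± 3.30 to 44.0 ± 10.4 CPM. For glycolysis 3 of 22 rose, among them hexokinase 2 (*Hk2*, 1.85-fold), and 5 fell, among them the enolase *Eno2* (2.18-fold) and the phosphofructokinase *Pfkp* (1.74-fold). Under TMM scaling 4 glycolysis genes rose and 3 fell, and edgeR and DESeq2 each called 4 higher and 4 lower. Of 23 genes for fatty acid oxidation *Cpt2* rose and *Pdk4* and *Acads* fell, with calls that were lost when single libraries were left out (log2 change 0.49 without hyperthyroid replicate 4 for *Cpt2*, -0.65 and -0.50 without hypothyroid replicate 3 for *Pdk4* and *Acads*). Without hyperthyroid replicate 3, 4 genes of this list rose, and without hypothyroid replicate 3 none fell in limma.

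The large housekeeping sets had no called gene over all libraries. Of 81 genes for oxidative phosphorylation, 56 cytosolic and 74 mitochondrial ribosomal protein genes, none was called by limma, edgeR or DESeq2, and 8 in all were negative and none positive at an unadjusted p under 0.05. Their median log2 changes were -0.03, -0.04 and -0.02. Within the library sets the oxidative phosphorylation median was -0.26 in replicates 1 and 2 and 0.19 in replicates 3 and 4, so the value over all libraries averages opposite shifts. Without hyperthyroid replicate 3 the 3 medians were -0.33, -0.36 and -0.22, and 5 oxidative phosphorylation genes and 1 cytosolic ribosomal protein gene were called lower. In edgeR the medians were 0.21, 0.13 and 0.09. Summed levels in hyperthyroid libraries ran from 2075 to 5212 CPM for oxidative phosphorylation and from 1712 to 6039 CPM for cytosolic ribosomal proteins, against 2388 to 3584 and 1944 to 3658 CPM in hypothyroid libraries. None of 22 cholesterol genes was called in limma, with 5 positive and 0 negative at an unadjusted p under 0.05, while edgeR and DESeq2 each called 3 higher.

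Imprinted growth genes, which are expressed from one parental copy and are high in fetal and endocrine tissue, had 6 of 17 lower and 1 higher. *Peg10*, a gene of retrotransposon origin, stood at 1741, 1969, 1263 and 1561 CPM and then at 174, 187, 106 and 180 CPM. The adjacent *Dlk1*, *Rtl1* and *Meg3* of chromosome 12 (110691033 to 110838540) all fell. *Dlk1* went from 4275 ± 465 to 1428 ± 157 CPM and *Rtl1* from 86.7 ± 3.02 to 29.2 ± 10.6 CPM. The non-coding RNA *Meg3* went from 6040 ± 998 to 4019 ± 1536 CPM, with overlapping groups. The *Meg3* call was lost under TMM scaling (log2 change -0.54), in edgeR (-0.50) and in replicates 3 to 5 alone (-0.55). It was also lost without hypothyroid replicate 4, or hyperthyroid replicate 2 or 4 (-0.58 to -0.51). *Plagl1*, chosen after its values were seen, fell 1.99-fold and *Mest*, likewise, 1.67-fold. *Nnat*, a small membrane protein, rose from 1791 ± 181 to 3551 ± 940 CPM. *Rtl1* is annotated on the strand opposite to *Dlk1* and *Meg3*, and the library kits do not mark strand.

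Of 29 transcription factors of the pituitary lineages 4 rose and 2 fell. *Neurod4*, needed for somatotroph development, stood at 30.8, 37.2, 21.4 and 21.9 CPM and then at 67.9, 105, 66.9 and 76.5 CPM. *Six6* rose by 0.83 and *Lhx3* by 0.60 on the log2 scale. *Gata2*, a factor of thyrotrophs and gonadotrophs, fell from 78.0 ± 4.19 to 50.1 ± 8.08 CPM and *Isl1*, also found in thyrotrophs, from 19.9 ± 3.24 to 11.4 ± 2.07 CPM. These 5 were apart between groups. However, the *Gata2* call was lost under TMM scaling (log2 change -0.54), in edgeR (-0.58), in replicates 3 to 5 alone (-0.58) and without hyperthyroid replicate 2 (-0.57). The *Lhx3* call was lost in replicates 3 to 5 alone (0.55). It was also lost without hypothyroid replicate 1 or 2, or hyperthyroid replicate 1 or 4 (0.48 to 0.58). Of 20 other nuclear receptors 3 rose and none fell, by limma, edgeR or DESeq2 (1 negative at an unadjusted p under 0.05 in limma). They were the vitamin D receptor *Vdr* (15.8 ± 0.617 to 43.1 ± 14.0 CPM), *Ppard*, a receptor for fatty acids (36.5 ± 2.88 to 85.4 ± 16.1 CPM), and the estrogen receptor *Esr1* (129 ± 53.5 to 248 ± 90.4 CPM), whose groups overlapped because replicates 1 and 2 had higher levels in both groups. The *Esr1* call was lost without hypothyroid replicate 3 or 4, or hyperthyroid replicate 1 or 2 (log2 change 0.74 to 0.81).

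Known T3 targets of other tissues had 7 of 17 tested genes higher and none lower (limma, with 0 negative at an unadjusted p under 0.05 and none lower in edgeR or DESeq2), with a median log2 change of 0.49. Without hyperthyroid replicate 3, 11 were higher. Besides genes the study discusses they included *Klf9*, a zinc finger factor (65.7 ± 5.17 to 123 ± 23.0 CPM), and *Gpd2*, a mitochondrial glycerol phosphate dehydrogenase (19.5 ± 3.15 to 40.5 ± 8.03 CPM), both chosen after their values were seen. The list was made of genes already known as T3 targets, so these counts are not independent evidence. In the list for FoxO, insulin and mTOR signalling 4 of 28 rose and 2 fell. The kinase *Akt2* (21.9 ± 0.610 to 45.5 ± 7.79 CPM) and the pseudokinase *Trib1* (14.2 ± 1.31 to 38.3 ± 7.77 CPM) rose, and the adaptor *Irs1* fell 1.78-fold. Of 69 histone-modifying enzymes *Setd7* (213 ± 52.4 to 449 ± 105 CPM) and *Suv420h2* rose and *Hdac9* and *Prmt7* fell. *Prmt7* was not called under TMM scaling (log2 change -0.53) or in replicates 1 and 2 alone (-0.54). Its call was also lost without hypothyroid replicate 3 or 4, or hyperthyroid replicate 2 (-0.57 to -0.50). The 16 cyclins D and CDK inhibitors had 1 called gene, *Gadd45a*, a sensor of stress and DNA damage (15.1 ± 3.17 to 41.2 ± 4.05 CPM). Of 22 genes of cell division *Bub1b* rose and *E2f1* fell. The *Bub1b* call was lost without hyperthyroid replicate 4 (log2 change 0.61) or hypothyroid replicate 2 (0.79).

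The remaining lists had at most 6 called genes each. Retinoid genes had 2 higher and 2 lower of 13, with the receptor *Rara* rising 1.88-fold and the carrier *Rbp4* falling 2.60-fold. The circadian clock had 3 higher and 2 lower of 22, apoptosis 2 and 3 of 26, amino acid synthesis 2 and 3 of 21, cadherins and claudins 2 and 4 of 43, cilia and motors 4 and 1 of 56, and myosins 2 and 2 of 25. Xenobiotic metabolism had 1 higher and 2 lower of 49, antioxidant defence 0 and 1 of 32, receptors for hypothalamic and gonadal signals 1 and 1 of 18, and stem cell genes 0 and 1 of 19. Single libraries moved some of these counts. Without hyperthyroid replicate 3, 4 xenobiotic genes were higher and 4 lower and 4 cadherin and claudin genes higher. Clock genes had 1 higher without hyperthyroid replicate 4 and 4 lower without hyperthyroid replicate 2, and cilia genes 5 lower without hyperthyroid replicate 1 and 3 lower without hyperthyroid replicate 2. Receptors for hypothalamic and gonadal signals had 0 higher and 2 lower without hypothyroid replicate 3, hypothyroid replicate 4 or hyperthyroid replicate 1, and stem cell genes 2 lower without hypothyroid replicate 2, hyperthyroid replicate 3 or hyperthyroid replicate 4. No immediate early gene of 20 and no DNA methylation gene of 11 was called in limma. At an unadjusted p under 0.05 these 2 lists had 3 positive and 1 negative change, and of edgeR and DESeq2 the latter called 1 DNA methylation gene higher. With the replicate number as a block 2 immediate early genes were called higher and 1 lower.

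Few markers of other cells in the gland were called. Of 11 endothelial markers none was called in limma, edgeR or DESeq2 (1 negative at an unadjusted p under 0.05). Of 8 markers of pericytes and smooth muscle *Mcam* fell, and of 7 fibroblast markers *Col1a1* and *Col3a1*, while 3 others changed upward without a call. Summed posterior lobe markers were 45.5 to 58.45 CPM in hypothyroid and 63.55 to 70.8 CPM in hyperthyroid libraries, and summed red blood cell markers 53.5 to 99.3 and 122 to 138 CPM. Neither pair of ranges overlapped, although no member was called in limma (3 posterior lobe markers positive at an unadjusted p under 0.05, and 2 called higher in edgeR and 1 in DESeq2, while no red blood cell marker passed). With the replicate number as a block 4 red blood cell markers were called higher. The 4 melanotroph markers summed to 413 to 565 and 309 to 404 CPM, ranges that did not overlap either. Yet 3 of the 4 changed upward, with a median log2 change of 0.07. Folliculostellate markers, of which 4 were tested, summed to 79.8 to 87.3 and 85.1 to 106 CPM. No member of either list was called in limma, edgeR or DESeq2 (1 melanotroph marker negative and 1 folliculostellate marker positive at an unadjusted p under 0.05). Skeletal muscle and thyroid markers stayed at or below 4.6 CPM in sum in every library. Whether dissection or blood content took part in any change of single genes was not tested.

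Genes that were below 1 CPM in at least one library were fitted separately. Of 1327 such genes above 1 CPM in at least 4 of the 18 libraries, 109 were higher (8.21%) and 151 lower (11.4%). They passed the limit mainly through the group in which they were high, so these shares are no measure of the response. Outside the genes the study discusses, the largest rises were in *B930025P03Rik*, a non-coding transcript (0.140 ± 0.0937 to 26.3 ± 11.9 CPM), and *Slc4a5*, a bicarbonate transporter (0.826 ± 0.188 to 17.3 ± 6.21 CPM). *D830015G02Rik* rose as well. The receptor genes *Pira1* (0.210 ± 0.0945 to 9.39 ± 1.65 CPM) and *Pira11* had nearly equal values in every library, and as members of one family they may share reads. *Ces1a*, a carboxylesterase with close relatives, stood at 12.3, 9.97, 34.0 and 29.9 CPM and then at 0, 0.0824, 0.243 and 0.209 CPM. *Rln3*, a relaxin peptide (18.1 ± 10.9 to 0.735 ± 0.809 CPM), *Gm11428*, and *Cartpt*, the precursor of the CART peptide (16.8 ± 13.5 to 1.28 ± 1.08 CPM), also fell. For the peptide genes the levels in replicates 3 and 4 were above those in replicates 1 and 2 in both groups.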

How the data were processed

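The authors enriched mRNA from pools of 3 pituitaries, made libraries with kits that do not mark strand, and aligned the reads to RefSeq transcripts of mouse build mm9, with BBMap according to the study's methods, while the submitters' processing notes list STAR without saying for which data. The authors deposited CPM values, which are reads per transcript scaled to a common library total without division by length. For TRβ-HAB sites, called by the authors with SICER 1.1 on merged libraries, the deposited list holds counts of reads in tagged and control samples, a fold ratio, and for each site a p-value with its false discovery rate, of which the counts alone are printed here. The deposited T3-regulated ATAC list, which gives positions and an adjusted p-value of the authors' own comparison, was used for positions only.

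For each symbol the transcript with the highest mean over 18 libraries was kept. Genes above 1 CPM in all libraries were fitted as log2(CPM + 1) with limma 3.58.1 (trend), 4 groups in one model, and a gene was called where p after Benjamini-Hochberg adjustment was under 0.05 with a change of 1.5-fold or more. Log2 changes are on this scale, which understates changes of low genes, and fold values in the text are ratios of mean CPM. Whole reads were recovered from the CPM steps (100% of values within 0.05 reads) and tested with edgeR 4.0.16 and DESeq2 1.42.0 as alternatives. The scripts were tested on simulated data. Deviations of same-numbered wild-type libraries from their group means correlated at 0.647, 0.815, 0.477 and 0.255. Differently numbered libraries of the same set correlated at 0.621 to 0.755, inside the range of the same-numbered pairs. Pairing by number was not tested. The calls use no pairs, and fits with a block for the number or the set were alternatives. The block for the number was fitted on the wild-type libraries only. P-values measure the spread between pools.

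Sites were assigned to a gene within 20 kb of its body. Sequence was read from the reference of the same build (NCBIM37). Named genes were the 10 largest non-overlapping changes each way outside hormone genes and genes the study names, up to 6 called members of each list or otherwise the 3 largest each way, abundant uncalled members as examples, the 5 largest each way below 1 CPM, cell type markers, and *Thrb*, *Thra*, *Gh*, *Prl*, *Tshb* and *Cga* as a check of the treatment. Members, lists and rules were chosen with earlier results of these data known. Brain sites and histone marks were not used here. Some genes that the rule names are not reported here.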

Additional observations from a re-analysis of the deposited data

Results flagged for a closer look

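In each group of 4 libraries, the highest or lowest value of a named gene was compared with the other 3 by Dixon's ratio of gap to range. Of 324 such groups 12 exceeded Dixon's critical value, which chance alone exceeds in about 1 in 20 groups. Hyperthyroid replicate 3, the library with the highest *Gh* and *Prl*, was the distant value for *Peg10* (106 CPM against 174 to 187 in the others), *Sema6c* (11.39 against 21.7 to 23.8), *Trib1* (26.72 against 41.25 to 42.8), *Dad1* (255.3 against 113 to 127) and *Meg3* (6297 against 2942 to 3483). For *Dad1* and *Meg3* this single value lay inside or above the hypothyroid range. Hyperthyroid replicate 4 was the distant value for *Ifit3* (14.13 against 6.07 to 6.98), *Bub1b* (15.18 against 6.32 to 6.85), *Acads* (9.214 against 6.38 to 6.85) and *Col5a3* (3.167 against 2.29 to 2.42). Among hypothyroid libraries the distant values were those of *Ifit3* in replicate 4 (2.828 against 3.91 to 3.97), *Nog* in replicate 1 (24.88 against 21.3 to 21.4) and *Pira1* in replicate 3 (0.06887 against 0.254 to 0.262, a level of few reads).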

How the results depend on the processing

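The counts of 509 higher and 735 lower genes stayed within 1.5 times under the other tests, filters and sample choices, apart from these. The lower count was 487 at a pseudocount of 5. The higher count was 870 in replicates 3 to 5 alone by edgeR. Without a fold limit the counts were 906 and 1630, and at 2-fold 180 and 223. Leaving out each library in turn gave 459 to 742 higher and 684 to 786 lower genes, the highest value without hyperthyroid replicate 3 by edgeR. With the replicate number as a replicate block, which follows the library sets, 515 were higher and 763 lower. That block was fitted on the wild-type libraries only, which without it gave 417 higher and 621 lower. Among genes below 1 CPM in some library edgeR called 167 higher. Lists with more members higher than lower numbered 13, but 20 in replicates 1 and 2 alone, 27 under TMM scaling and 11 to 22 when single libraries were left out. Lists leaning lower numbered 24, 15 under TMM scaling and 19 to 29 when single libraries were left out. The cause was not tested.

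Within 5 kb, 65.73% of higher, 27.29% of lower and 28.85% of other genes had a TRβ-HAB site, and 26.01%, 8.033% and 4.553% a T3-regulated ATAC site. Within 100 kb these shares were 88.1%, 64.68% and 70.51%, and 45.97%, 17.17% and 17.07%. Of the 162 named genes, none that was called changed direction under the alternatives run for them. For named genes that were not called, direction was not compared. Replicates 3 to 5 alone ended 12 calls, replicates 1 and 2 alone 7, TMM scaling 7, edgeR 6 and leaving out single libraries 4 to 10. For some genes the text names only part of the fits that ended a call. Tests within sets by edgeR, edgeR without hyperthyroid replicate 3, the alternatives for genes below 1 CPM, the lists by DESeq2 and with the block, and the test of the difference between sets were added after the data were seen. Low CPM values rest on few reads.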
